A study of Homo sapiens with 4 samples.

Results

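The oxidant sensor pair NRF2 and KEAP1 and 7 antioxidant or detoxifying enzymes were followed in U937 cells after loss of PIR. The 9 genes were NFE2L2 (which encodes NRF2), KEAP1, NQO1, GCLC, GCLM, TXNRD1, SRXN1, ME1 and AKR1C1, out of 19775 genes named on the array. Every probe set whose platform annotation gave 1 of these symbols and no other was taken, which gave 24 of 54613 probe sets. A further 2 probe sets were annotated to a member together with another gene and were not used. U937 is an established human line with monocyte features, derived from a histiocytic lymphoma. One population carried the lentiviral pSICO-R vector with a single hairpin against PIR (shPIR#7), and the other carried the same vector without a hairpin. The product of PIR, pirin, is a nuclear protein that binds iron, and the gene has itself been described as an NRF2-regulated gene. Each population was represented by 1 pool of equal RNA amounts from 3 extractions, hybridised to 2 HG-U133 Plus 2.0 arrays, for 4 arrays in all. Arrays of the same pool share their RNA, so each SD given here (n = 2 arrays) is technical, and no p-value was computed. Bulk RNA cannot tell fewer cells of a type from less RNA per cell.

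NRF2 is a transcription factor that is held at low levels by KEAP1, a thiol-bearing adaptor that presents it to the CUL3 ubiquitin ligase. When oxidants or electrophiles modify KEAP1, NRF2 accumulates, pairs with small MAF proteins and binds antioxidant response elements near its target genes. Much of this control acts on NRF2 protein, so the mRNA of NFE2L2 is only a partial readout of the pathway. The targets supply glutathione, reduced thioredoxin and NADPH, and reduce quinones and carbonyls. Phagocytes carry this programme beside an oxidant-producing oxidase, whose activity in these U937 cells was not measured.

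Because the antioxidant response element is the sequence through which NRF2 acts, its core TGACNNNGC (N is any base) was searched on both strands of the RefSeq promoter windows (GRCh38.p14) from 250 bases before to 50 after each gene start. All 9 members were found in this table, with 12 windows, since NFE2L2, TXNRD1 and KEAP1 have more than 1 start. A match was present in 5 of the 12 member windows, which belonged to 4 genes, against 13.3% of all 35116 windows. The stretches below show matches in capitals, read 5′ to 3′ along the strand of the gene. They lie at chr1:93909431-93909494 (GCLM, minus strand), chr19:10502772-10502855 (KEAP1, minus), chr12:104215650-104215718 and chr12:104286900-104286968 (the 2 TXNRD1 starts, plus), chr6:83431150-83431218 (ME1, minus) and chrX:15493289-15493317 (PIR, minus), the last shown because PIR is the hairpin's target.
GCLM: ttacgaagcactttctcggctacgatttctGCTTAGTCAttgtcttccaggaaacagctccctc
KEAP1: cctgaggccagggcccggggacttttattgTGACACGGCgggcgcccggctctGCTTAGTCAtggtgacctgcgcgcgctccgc
TXNRD1, first start: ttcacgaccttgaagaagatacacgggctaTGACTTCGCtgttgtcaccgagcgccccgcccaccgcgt
TXNRD1, other start: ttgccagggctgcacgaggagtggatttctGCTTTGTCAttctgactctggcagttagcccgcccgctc
ME1: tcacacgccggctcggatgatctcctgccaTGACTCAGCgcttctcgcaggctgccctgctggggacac
PIR: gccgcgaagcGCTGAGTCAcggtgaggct

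The GCLM match and the nearer KEAP1 match held the same 9 bases, TGACTAAGC, on the strand opposite to the gene, 34 and 31 bases before the start. The upstream ME1 match and the PIR match shared TGACTCAGC, which also contains the AP-1 site TGACTCA. That of PIR lay after the start, at base 27. TXNRD1 and ME1 each had 1 more match close to a start, not shown. No match was present in these windows of NFE2L2, NQO1, GCLC, SRXN1 or AKR1C1, which says only that these letters are not in these stretches. No binding was measured here, so a match describes the sequence and not an occupied site.

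All 4 arrays had been scaled to the same trimmed mean signal of 500.1. The median SD between the arrays of a pool was 0.09 in the knock-down and 0.07 in the empty-vector pool on the log2(signal + 18) scale, over the 21933 probe sets counted as measured. The brightness limit was the 60th percentile of signal on each array, 116.4 to 125.5, and a probe set was measured when 1 pool or both reached it on each of its arrays. The GAPDH control probe sets had 3′ to 5′ signal ratios of 0.98 and 1.00 in the knock-down and 0.96 and 1.02 in the empty-vector pool, and the ACTB ratios were 1.17 to 1.18 on all 4 arrays. PIR itself had signals of 83.4 and 91.5 with the hairpin and 1813 and 1882 without it, a log2 difference of -4.15. Of 9 myelomonocytic markers with a probe set of their own, 8 reached the brightness limit in both pools and MPO did not. CD33 was not analysed. The summed marker signal was 57287 and 62737 in the knock-down pool against 53231 and 54606, and PTPRC, CSF1R and CD4, 3 of these markers, were higher by the 1.5-fold rule described next. Marker sums were 168.0 and 185.0 against 95.4 and 105.4 for 4 T cell genes, 307.4 to 348.4 against 295.1 to 398.3 for 2 B cell genes, 141.0 to 188.8 against 105.3 to 126.7 for 2 erythroid genes and 107.5 to 215.0 against 159.5 to 166.8 for 4 epithelial genes. CD79A was the only one of these 12 genes at the brightness limit. The part of these differences in the results below was not tested.

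The members did not move together. By brightest probe set, NQO1 (-0.44), NFE2L2 (-0.26) and KEAP1 (-0.19) were lower in the knock-down pool, and SRXN1 (0.47) and GCLC (0.27) higher. AKR1C1 was higher (0.73), on dim probe sets that can bind related transcripts. GCLM and TXNRD1 lay close to 0. Differences are on the log2(signal + 18) scale, knock-down minus empty vector. A probe set was called at 2-fold when the pool means differed by at least 1, each of the 4 differences between single arrays reached 0.5 the same way, and the brighter pool reached the brightness limit on both arrays. A second rule used 1.5-fold (0.585, with 0.29 for each array pair). Of the 24 member probe sets, 15 were measured. By the 2-fold rule 1 of these was higher and 0 lower, where 2.29% of all measured probe sets were higher and 1.45% lower. By the 1.5-fold rule 2 were higher and 1 lower, against 8.15% and 6.77% of all measured probe sets. The 2 higher probe sets both belonged to AKR1C1 and the lower one to NQO1. Both AKR1C1 probe sets reached the brightness limit in the knock-down pool alone, so they counted as measured through the pool where they are high, and the count of higher calls describes them and supports nothing further. The NQO1 probe set reached it in both pools.

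The 2 arrays of one pool lay wholly above those of the other for 10 of the 15 measured probe sets, 5 higher and 5 lower in the knock-down. Over all measured probe sets 37.4% were higher and 33.3% lower without overlap, so separation of the arrays was common and a count of 10 in 15 lies near the background. The median difference was 0.01 over the 24 member probe sets and -0.05 over the 15 measured ones, where it was -0.03 over all probe sets and 0.02 over all measured ones. Over the 8 members with a measured probe set, each taken by its brightest, the median was 0.02, with 5 positive and 3 negative. The spread among them ran from -0.44 for NQO1 to 0.73 for AKR1C1, which counted as measured through the knock-down pool alone.

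**Figure D1:**
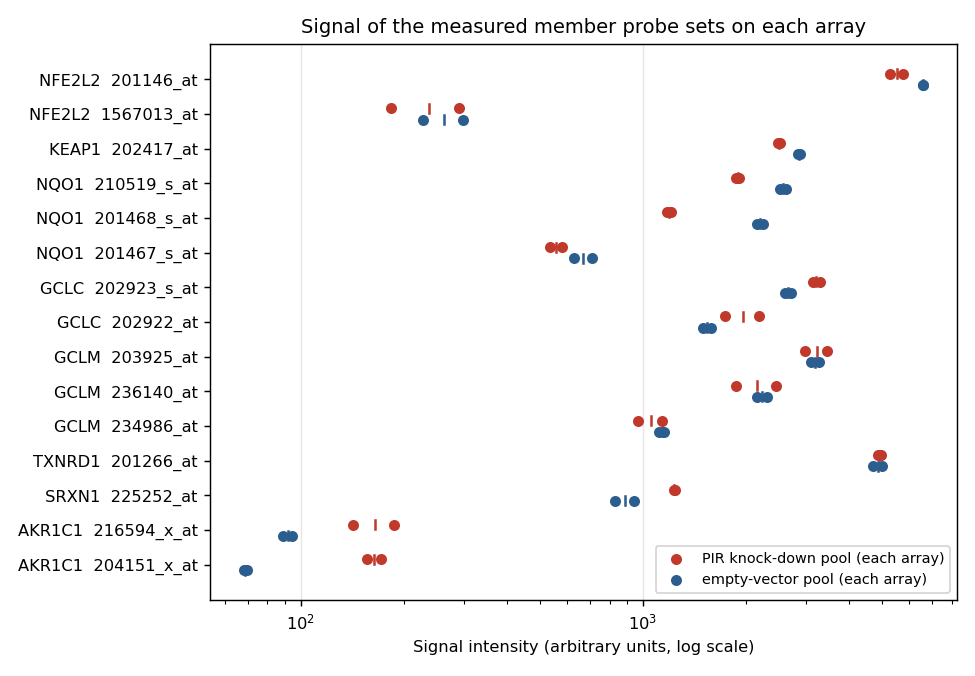
Signal intensity (log axis) of the 15 measured member probe sets on each of the 4 arrays; points are arrays and short vertical lines pool means. NQO1 probe sets have lower signals on both knock-down arrays, SRXN1, GCLC and AKR1C1 higher ones, and the GCLM and TXNRD1 points of the pools overlap.

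NFE2L2, the transcription factor, was bright on 201146_at, giving 5296 and 5775 in the knock-down pool against 6601 and 6617 in the empty-vector pool. Both knock-down arrays were lower, and the difference of -0.26 (1.19-fold) had array-by-array values from -0.32 to -0.19. A second probe set, 1567013_at, gave 290.0 and 183.2 against 297.4 and 228.1, and its pools overlapped. The third, 1567015_at, stayed at or under 34.5 on every array and was not measured. KEAP1, which targets NRF2 for degradation, had 2492 and 2522 in the knock-down pool and 2844 and 2885 in the empty-vector pool on its only probe set, 202417_at. The difference was -0.19 (1.14-fold), with technical SDs of 20.7 and 29.3 around pool means of 2507 and 2864. After median scaling the KEAP1 difference was -0.06 and that of NFE2L2 201146_at was -0.13. Neither regulator met the 1.5-fold rule, and 23.6% of measured probe sets had a difference at or below that of NFE2L2 and 29.0% one at or below that of KEAP1.

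NQO1, the quinone reductase often used as the standard NRF2 readout, was lower on all 3 of its probe sets, by different amounts. On 201468_s_at the signals were 1179 and 1212 with knock-down against 2251 and 2163 with the empty vector. The difference was -0.87 (1.83-fold), the array-by-array values ran from -0.92 to -0.83, and it met the 1.5-fold rule as lower. Of all measured probe sets, 2.44% had a difference at or below it. The brightest probe set, 210519_s_at, had 1878 and 1908 against 2527 and 2629, a difference of -0.44 (1.36-fold). On 201467_s_at the signals were 579.5 and 537.4 against 631.3 and 709.0, a difference of -0.25 (1.19-fold). The share of measured probe sets at or below was 12.5% for 210519_s_at and 23.8% for 201467_s_at. The arrays of the pools did not overlap on any of the 3, but neither did the array-by-array ranges of the 3 probe sets. The size of the NQO1 difference therefore depends on which probe set is read, while its sign did not.

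Glutamate-cysteine ligase makes the first and rate-limiting step of glutathione synthesis from a catalytic subunit, GCLC, and a modifier subunit, GCLM. GCLC was slightly higher in the knock-down pool. Its brightest probe set, 202923_s_at, had 3289 and 3147 against 2719 and 2601, a difference of 0.27 (1.21-fold). On 202922_at the signals were 1745 and 2192 against 1588 and 1502, a difference of 0.34 (1.26-fold) with a wide spread between the knock-down arrays. Both probe sets separated the pools and neither met the 1.5-fold rule; the third, 1555330_at, was not measured.

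GCLM did not separate the pools on any of its 3 probe sets, all of them bright. The signals on 203925_at were 3467 and 2984 in the knock-down and 3103 and 3266 in the empty-vector pool, a difference of 0.01. The other 2 probe sets had differences of -0.05 (236140_at) and -0.11 (234986_at). On each of the 3, knock-down replicate 1 was above knock-down replicate 2 by more than the pools differed. Single-array differences lay between -0.29 and 0.18 over the 3 probe sets, so a change of more than about that size was not seen for this subunit.

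**Figure D2:**
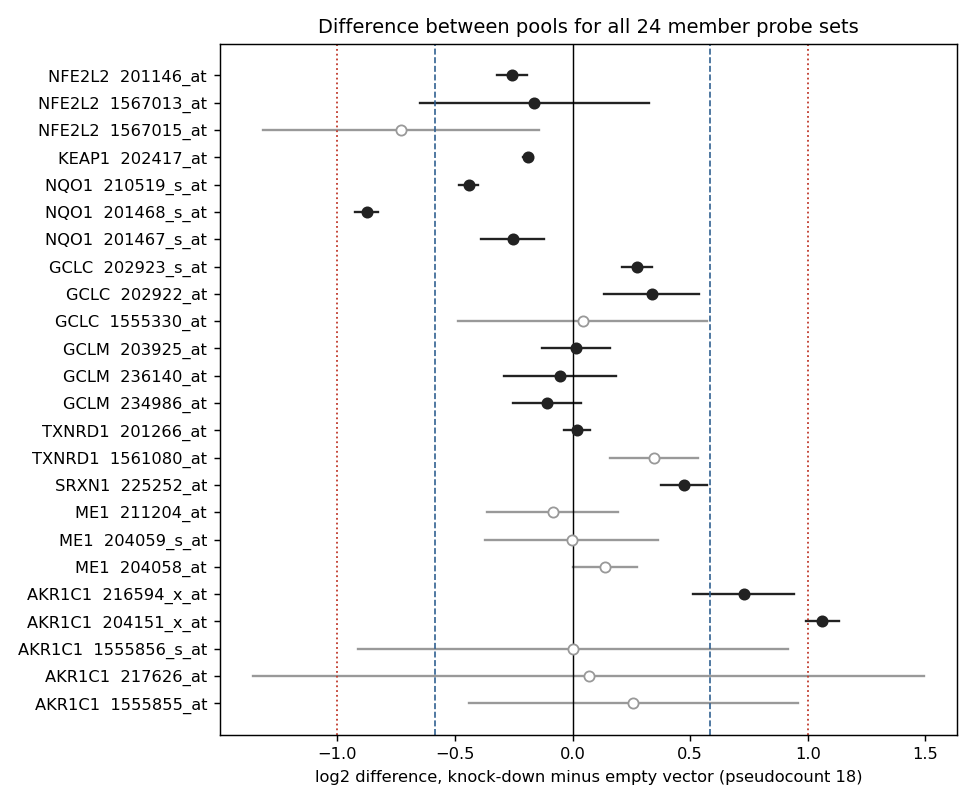
Difference between the pool means (points) and range of the 4 array-by-array differences (lines) for all 24 member probe sets; open grey points were not measured, dashed lines mark 1.5-fold and dotted lines 2-fold. AKR1C1 204151_x_at lies past 2-fold at 1.06 and NQO1 201468_s_at past 1.5-fold at -0.87, while the measured GCLM and TXNRD1 points lie near 0.

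TXNRD1, the cytosolic reductase that keeps thioredoxin reduced, had 4969 and 4864 with knock-down against 4995 and 4724 with the empty vector on 201266_at. The pools overlapped, and the difference of 0.02 had array-by-array values from -0.04 to 0.07. Its second probe set, 1561080_at, was not measured. SRXN1, sulfiredoxin, which repairs over-oxidised peroxiredoxins, had 1239 and 1232 against 944.3 and 827.6 on its only probe set, 225252_at. Both knock-down arrays were higher, and the difference was 0.47 (1.39-fold) with array-by-array values from 0.38 to 0.57. SRXN1 stayed under the 1.5-fold limit, and 12.6% of measured probe sets had a difference at or above it. After median scaling it passed that limit, at 0.60.

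ME1, the cytosolic malic enzyme that makes NADPH, was not measured in either pool. Its 3 probe sets had signals from 1.1 to 75.9 on the 4 arrays, under the brightness limit throughout, so no direction is given. In all, 9 member probe sets were not measured, with signals from 1.1 to 80.5.

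AKR1C1, an aldo-keto reductase that reduces ketosteroids and carbonyls, had dim signals that were higher in the knock-down pool. On 204151_x_at the signals were 156.1 and 171.6 in the knock-down pool and 69.5 and 68.5 in the empty-vector pool. The difference of 1.06 (2.09-fold) had array-by-array values from 0.99 to 1.13 and met the 2-fold rule, although its size depends on the pseudocount. On 216594_x_at, the brightest by mean log2 value, the signals were 187.6 and 142.4 against 88.9 and 94.4, a difference of 0.73 (1.66-fold) that met the 1.5-fold rule. Both empty-vector signals lay under the brightness limit, and both identifiers end in _x_at, which marks probes that can bind related transcripts. The other 3 AKR1C1 probe sets were not measured and their pools overlapped. Of the related genes, AKR1C2 had 137.8 ± 39.1 against 42.3 ± 19.7 on 211653_x_at and was not measured, and AKR1C3 had 152.2 ± 15.3 against 125.5 ± 8.84, a difference of 0.25. Which AKR1C transcript gave these signals was not tested.

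Without a pseudocount the difference of AKR1C1 204151_x_at was 1.25, and with a pseudocount of 72 it was 0.74, which ended its 2-fold call and was smaller in size than the -0.85 of NQO1 201468_s_at under the same setting. With the limit raised to the 75th percentile of signal, neither AKR1C1 probe set was called. Without knock-down replicate 1, 216594_x_at had a difference of 0.55 and only 204151_x_at kept its 1.5-fold call. The NQO1 call on 201468_s_at was kept under every alternative run, with differences from -0.90 to -0.75.

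**Figure D3:**
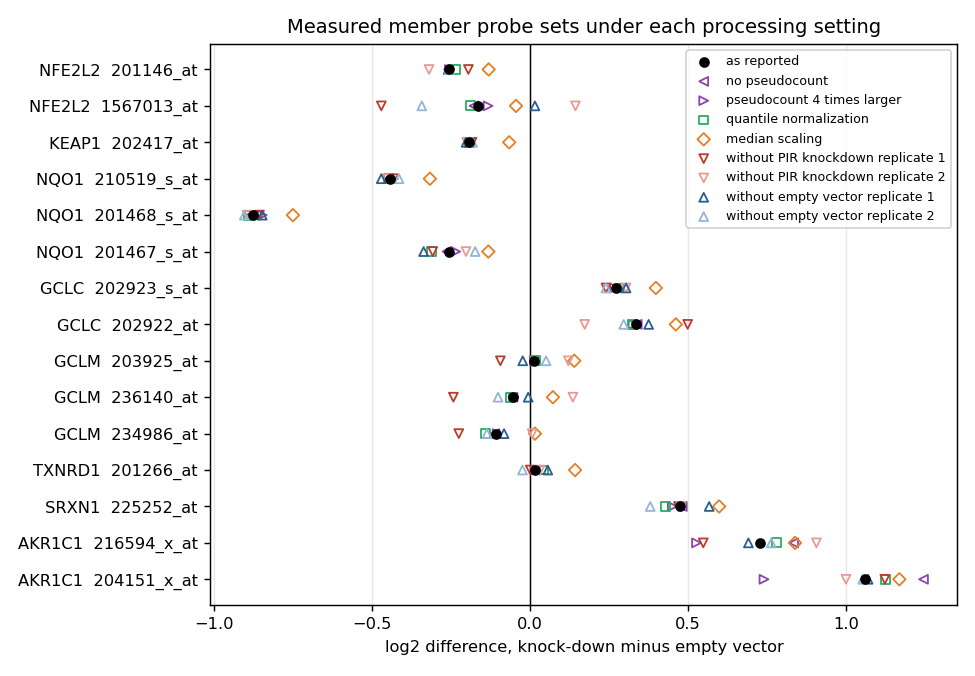
Difference between pools of the 15 measured member probe sets (horizontal axis, log2) as reported (black) and under each alternative of pseudocount, scaling or omitted array. The AKR1C1 probe sets spread most with the pseudocount and the GCLM probe sets straddle 0, while the NQO1, NFE2L2 201146_at and KEAP1 points stay below 0 and those of GCLC and SRXN1 above it.

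The rest of the pathway was described by 5 lists of 107 genes, of which 101 had a probe set named for them alone and 84 were measured, each by its brightest probe set. By the 1.5-fold rule 9 of the 84 were higher and 2 lower, against 8.51% higher and 4.95% lower of all 10288 measured genes. After quantile normalization 5 were higher, and after median scaling 0 were lower. The median difference was 0.15 over the 84 genes and 0.05 over all measured genes. Of the 84, 54 had positive and 30 negative differences (64.3% positive), where 55.2% of all measured genes were positive. ABCC2, among the 9 higher genes, and AKR1C3 counted among the 84 and the positives through the knock-down pool alone. Leaving out 1 array ended 7 of the 11 calls, as given below, and the other 4, TXNIP, MSRB2, NNT and EPHX1, passed the 1.5-fold rule without any 1 array.

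Among the 20 measured regulators of NRF2, 1 was higher and 0 lower, with a median of 0.16. NFE2L1, a related factor of the same family, had 1747 and 1789 against 1201 and 1144 on 200759_x_at, a difference of 0.585 just past the limit, and its other measured probe sets gave 0.29 and 0.21. The call ended without knock-down replicate 2 (0.57) or empty-vector replicate 2 (0.55). CUL3, the ligase scaffold that KEAP1 recruits, had a difference of -0.12, which was 0.01 after median scaling, and 0.10 on its other measured probe set. SQSTM1, the autophagy adaptor that competes for KEAP1, had 0.28 on its brightest probe set and -0.29 on the other. BACH1, the repressor that occupies the same elements, had 0.36, and MAFG, a small MAF partner, had 0.35. The other measured MAFG probe set, 224466_s_at, had 0.85, with array-by-array values from 0.29 to 1.41. It reached the brightness limit in the knock-down pool alone. The 0.35 of MAFG was 0.55 without knock-down replicate 1 and 0.16 without knock-down replicate 2.

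None of the 21 measured genes of glutathione synthesis and use met the 1.5-fold rule on its brightest probe set, and their median was 0.15. By that measure GSR, which regenerates reduced glutathione, came nearest, with 1907 and 1768 against 2680 and 2844 on 225609_at. The difference was -0.584, just short of the limit. Its second probe set, 205770_at, had a difference of 0.16, so the GSR probe sets disagreed in sign. MGST3 had 0.39 on its brightest probe set and 1.55 on its other measured one, which was dimmer. Whether that dimmer probe set reached the brightness limit in both pools is not given here. SLC7A11, the cystine importer, had differences of -0.02 and -0.26, and the first turned positive after median scaling.

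Of the 17 measured genes of the thioredoxin, peroxiredoxin and superoxide list, 3 were higher and 1 lower, with a median of 0.06. TXNIP, which binds and inhibits thioredoxin, had 1950 and 1934 against 862.8 and 968.3 on 201010_s_at, a difference of 1.07 (2.10-fold) that also met the 2-fold rule, and 0.99 without empty-vector replicate 1. Its other probe sets gave 0.79 and 1.09. MSRB2, a mitochondrial methionine sulfoxide reductase, had 2485 and 2517 against 1553 and 1598, a difference of 0.66. Its second measured probe set, 219451_at, had 0.75, with array-by-array values from 0.35 to 1.15. That probe set reached the brightness limit in the knock-down pool alone. SESN2, a stress-induced sestrin, had 393.1 and 438.4 against 187.3 and 314.9, a difference of 0.73, but its second probe set overlapped between pools at 0.26. Without empty-vector replicate 1 the 0.73 of SESN2 was 0.38, which ended the call, and without empty-vector replicate 2 it was 1.08. SOD2, the mitochondrial superoxide dismutase, was lower on 1566342_at, the only probe set named for it alone. The signals were 387.3 and 410.7 against 631.5 and 607.9. The difference of -0.61 fell short of the limit without knock-down replicate 1 (-0.57). Any probe set annotated to SOD2 together with another gene was not used. TXN, thioredoxin itself, had 19194 and 19565 against 18111 and 19094, a difference of 0.06 that was -0.01 after quantile normalization. Its far dimmer probe set 216609_at went the other way, with 657.7 and 792.9 against 1021 and 1046, a difference of -0.51.

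**Figure D4:**
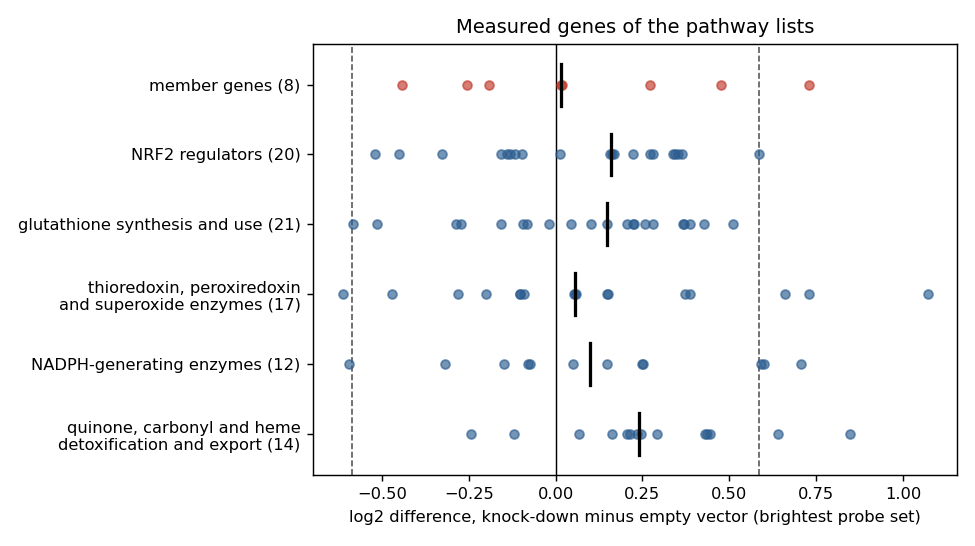
Difference between pools of each measured gene (points, brightest probe set) for the 8 measured members and the 5 pathway lists, with the number of genes in brackets; black bars are medians and dashed lines mark 1.5-fold. The medians lie between 0.02 for the members and 0.24 for the detoxification and export list, and TXNIP is the point at 1.07.

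Of 12 measured NADPH-generating enzymes, 3 were higher and 1 lower by their brightest probe sets, with a median of 0.10. TKT, not called, had 0.25 on its brightest probe set, and -1.41 and 0.29 on its 2 other measured ones, both dimmer. Whether the TKT probe set at -1.41 reached the brightness limit in both pools is not given here. IDH1, the cytosolic isocitrate dehydrogenase, had 20229 and 20066 against 13034 and 13726 on 201193_at, a difference of 0.59, with 0.82 on another bright probe set and -0.34 on a dim one. The IDH1 call ended without empty-vector replicate 1 (0.55) or knock-down replicate 1 (0.5845). IDH2, its mitochondrial counterpart, went the other way, with 4516 and 4356 against 6663 and 6746, a difference of -0.59 (-0.57 and no call without knock-down replicate 2), and -0.37 on its second probe set. NNT, the mitochondrial transhydrogenase, had 2851 and 3021 against 1688 and 1903 on its brightest probe set, a difference of 0.71. Its other measured probe sets gave 0.35 (202784_s_at) and -0.80 (238530_at). ME3, the mitochondrial relative of ME1, had 566.5 and 463.6 against 329.1 and 335.1, a difference of 0.60 that was 0.46, with no call, without knock-down replicate 1.

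The 14 measured genes of quinone, carbonyl and heme detoxification and export had a median of 0.24, with 12 positive differences (85.7%, against 55.2% of all measured genes), 2 higher by the rule and 0 lower. ABCC2 and AKR1C3 reached the brightness limit in the knock-down pool alone, so they entered these counts through the pool where they are higher. EPHX1, the microsomal epoxide hydrolase, had 1531 and 1444 against 914.8 and 981.9, a difference of 0.64. ABCC2, an exporter of conjugates, had 156.1 and 184.8 against 110.7 and 66.9, a difference of 0.85 from empty-vector signals under the brightness limit. Without empty-vector replicate 2 the ABCC2 difference was 0.55 and the call ended, and without empty-vector replicate 1 it was 1.15. HMOX1, heme oxygenase and a target of both NRF2 and BACH1, had 226.6 and 290.4 against 154.4 and 222.7. The HMOX1 difference of 0.43 had array-by-array values from 0.02 to 0.84 and did not meet the 1.5-fold rule.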

How the data were processed

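Signals were made by the authors with GCOS, per the submitters' processing notes; the version is not given in the sources used here. Per array and probe set, the table deposited by the authors holds 1 linear signal intensity, scaled to a common mean after trimming 2% at each end. Of 54675 probe sets, 62 controls were left out of all calls; 41091 of the rest had 1 gene symbol, 1801 had several and were not named, and 41037 matched RefSeq by gene identifier.

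Arrays were averaged within each pool and compared as log2(signal + 18), the added 18 being the 25th percentile of signal averaged across the arrays; this understates folds of dim probe sets. Calls are by size, and no test was run, since each condition is 1 pool. Precision is limited by 1 pool per condition and 2 arrays per pool; detection calls were not used. Scaling assumes equal total signal in both pools. Named genes are the members, PIR, list genes past the 1.5-fold rule and 11 genes fixed by name. MGST3 and TKT are also named, for another measured probe set that lay far from their brightest. Members and lists were chosen with earlier results of these data known. Alternatives covered pseudocount, scaling, brightness limit, array-pair margin, probe set choice and each array left out. Python 3.11.15, pandas 2.3.3 and numpy 2.4.6 were used.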

Additional observations from a re-analysis of the deposited data

How the results depend on the processing

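The members' counts were recomputed under 11 alternatives. With the larger pseudocount the 2-fold rule called 0 member probe sets higher and the 1.5-fold rule 1. Under the 75th percentile brightness limit both rules called 0 higher. With 1 array left out, the 1.5-fold rule called 1 to 2 higher, the lower count without knock-down replicate 1, and the 2-fold rule 1. The median over member genes was 0.14 after median scaling, which moved the median of all measured probe sets from 0.02 to 0.14. With 1 array left out it ran from -0.093 to 0.052. Of 15 measured member probe sets, 10 kept their sign under all 8 alternatives that change the difference; the 3 GCLM probe sets, NFE2L2 1567013_at and TXNRD1 201266_at did not. Alternatives for the pathway lists were added after the data were seen. The lists had 5 higher genes after quantile normalization, and 1 lower gene with the larger pseudocount and 0 after median scaling. With 1 array left out they had 7 to 9 higher and 2 to 3 lower. No paired analysis was possible because the replicate numbers mark hybridisations of 1 pool and the results come from no test.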
